A study of Homo sapiens with 6 samples.

Results

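The enzymes that take apart heparan sulfate and chondroitin sulfate were followed in HCT-15 cells, a human line derived from a colon cancer, with and without exposure to 5-aza-2'-deoxycytidine. This drug is a nucleoside that cells incorporate in place of cytosine and that traps DNA methyltransferases, so that methylation is lost as cells divide. The members were chosen by function: 9 genes for exoglycosidases, sulfatases, an acetyltransferase and heparanase, namely HPSE, IDS, IDUA, SGSH, HGSNAT, NAGLU, GUSB, ARSB and GALNS. Probe sets were matched to them by the RefSeq transcript in the probe set name. The match found 11 probe sets of 8 of the 9 genes, among 1259 probe sets and 927 named genes in all, and none was matched to HGSNAT, which is not analysed here. IDS had 2 probe sets, ARSB had 3, and the other 6 genes had 1 each.

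Total RNA of 3 treated and 3 untreated samples of this line was labelled with biotin for Affymetrix arrays. Values are on a log2 scale after RMA, which subtracts background, brings the arrays to a common scale and combines the probes of each set. The sources used here give neither dose nor duration. Replicates are not labelled as separate cultures, and the p-values therefore cover only the spread among these 6 arrays, which may be technical, and whose number limits the precision. Untreated replicate 3 carries a title that calls it treated, whereas its source name and treatment entry call it untreated, and it was grouped as untreated. The titles of the 3 treated arrays also hold the word control. Array medians lay between 5.81 and 5.92. With untreated replicate 3 grouped in this way, arrays of 1 group correlated at 0.9974 to 0.9987 and arrays of different groups at 0.9817 to 0.9844. Of the epithelial markers looked for, LGALS4, MUC13 and MUC2 had probe sets, with mean values in treated cells of 9.03, 8.93 and 5.67 and in untreated cells of 9.54, 7.97 and 5.57. LGALS4 fell (limma adjusted p = 0.000291), MUC13 rose (limma adjusted p = 6.15e-06) and MUC2 was not called. Of 5 measured markers of stroma and endothelium, DCN, LUM, SELE and SELP averaged 2.58 to 3.78 in treated cells and 2.43 to 3.82 in untreated cells, in a table that starts at 2.13, and none of these 4 was called. PECAM1 averaged 5.27 in treated cells and 4.98 in untreated cells and was called (limma adjusted p = 0.0403). Of 4 leukocyte markers CD33 rose (6.15 in treated cells, 5.58 in untreated cells, limma adjusted p = 0.000168), CD22 fell (5.13 in treated cells, 5.38 in untreated cells, limma adjusted p = 0.013), and SELPLG was not called. The part of other cell types in the results was not tested.

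Heparan sulfate and chondroitin sulfate are long sulfated sugar chains carried by proteoglycans at the cell surface and in the matrix. Heparanase cuts heparan sulfate inside the chain, and the fragments are then taken apart in lysosomes from the non-reducing end, 1 residue at a time, each sulfatase removing a sulfate so that the next glycosidase can act. Inherited loss of a lysosomal member blocks the sequence and causes a mucopolysaccharidosis.

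Because the methylation that the drug depletes lies mainly on cytosines next to guanine, the promoters of the called members with the largest rise and the largest fall are shown, as listed by RefSeq on GRCh38.p14, with each CG dinucleotide in capitals. Each window runs from 250 bases before to 50 bases after a transcription start, and for genes with several windows the first one listed is printed. The HPSE window, chr4:83335104-83335403 on the minus strand, holds 16 CG dinucleotides, and the IDUA window, chr4:986794-987093 on the plus strand, holds 31.
HPSE: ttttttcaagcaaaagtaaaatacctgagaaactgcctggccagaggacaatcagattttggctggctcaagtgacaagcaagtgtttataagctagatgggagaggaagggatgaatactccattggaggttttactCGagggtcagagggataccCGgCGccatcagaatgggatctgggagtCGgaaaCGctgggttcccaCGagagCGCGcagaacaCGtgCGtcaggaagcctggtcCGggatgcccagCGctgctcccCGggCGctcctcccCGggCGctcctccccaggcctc
IDUA: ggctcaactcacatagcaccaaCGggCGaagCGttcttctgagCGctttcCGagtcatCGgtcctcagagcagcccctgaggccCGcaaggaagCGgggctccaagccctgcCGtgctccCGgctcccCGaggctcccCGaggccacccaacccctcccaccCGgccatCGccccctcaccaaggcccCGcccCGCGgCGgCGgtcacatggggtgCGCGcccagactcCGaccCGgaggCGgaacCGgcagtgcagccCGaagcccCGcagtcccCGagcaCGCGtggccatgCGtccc
The median over all 35116 windows of this length was 14, with 52.5% of windows holding fewer than the printed HPSE window and 79.3% fewer than the printed IDUA window. Over the 10 windows found for HPSE, IDS, IDUA, GUSB, ARSB and GALNS the count lay between 8, in the second ARSB window, and 39, in the GALNS window. The other HPSE windows held 23 and 22, and the other IDUA window held 13. Of the 10, the second ARSB window and the second IDUA window lay under the median of all windows. DNA methylation was not measured, so the counts describe sequence only. The motif CACGTG, the E-box core read the same on both strands, stood in the printed HPSE window, in the second ARSB window and in the GALNS window, and in 7.26% of all windows. TCACGTGA, an E-box within the CLEAR element known from lysosomal gene promoters, contains the same core, was likewise read on both strands, and stood in the GALNS window and in 0.98% of all windows.

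**Figure D1:**
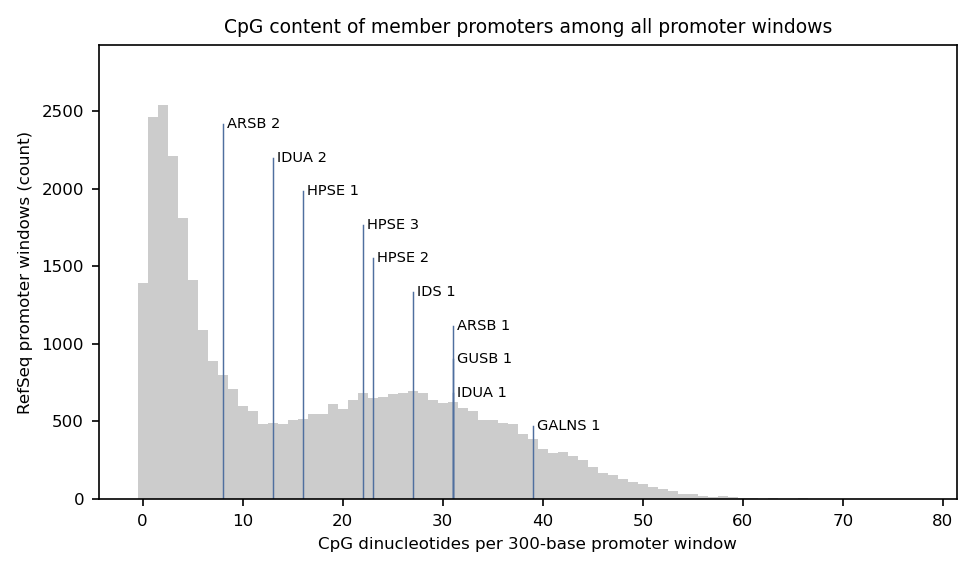
Number of CG dinucleotides (horizontal axis, count per 300-base window) over all 35116 RefSeq promoter windows (grey bars, vertical axis in windows), with a vertical line for each of the 10 windows of member genes; the number after a gene is the order in which its windows are listed, and the height of a line carries no value. Member windows run from 8 to 39, against a median of 14 over all windows.

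The question the submitters posed was how glycan-related genes change after treatment. Among the degrading enzymes the change went both ways. Heparanase and the sulfatases IDS and ARSB were higher in treated cells, by 1.67-fold, 1.46-fold and 1.37-fold in their brightest probe sets, and the exoglycosidases IDUA and GUSB were lower, by 1.46-fold and 1.24-fold. The sulfatases SGSH and GALNS and the exoglycosidase NAGLU were not called, with log2 changes of -0.26, -0.15 and -0.18. The sulfatases thus did not all change in 1 direction. ARSB set 3, described below, was not called either (log2 change 0.18, limma adjusted p = 0.0783). By limma with p-values adjusted by Benjamini-Hochberg over all 1259 probe sets, 5 member probe sets rose, 2 fell and 4 were not called. Over all probe sets 438 (34.8%) were called, 227 as rises (18.0%) and 211 as falls (16.8%), which is the background for these counts. Centring the arrays on their medians gave 197 rises and 311 falls over all probe sets and 5 rises and 3 falls among the members. Quantile normalization gave 220 rises and 265 falls over all probe sets and 4 rises and 3 falls among the members. The 8 genes share the same 6 arrays and are not replicates of each other.

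**Figure D2:**
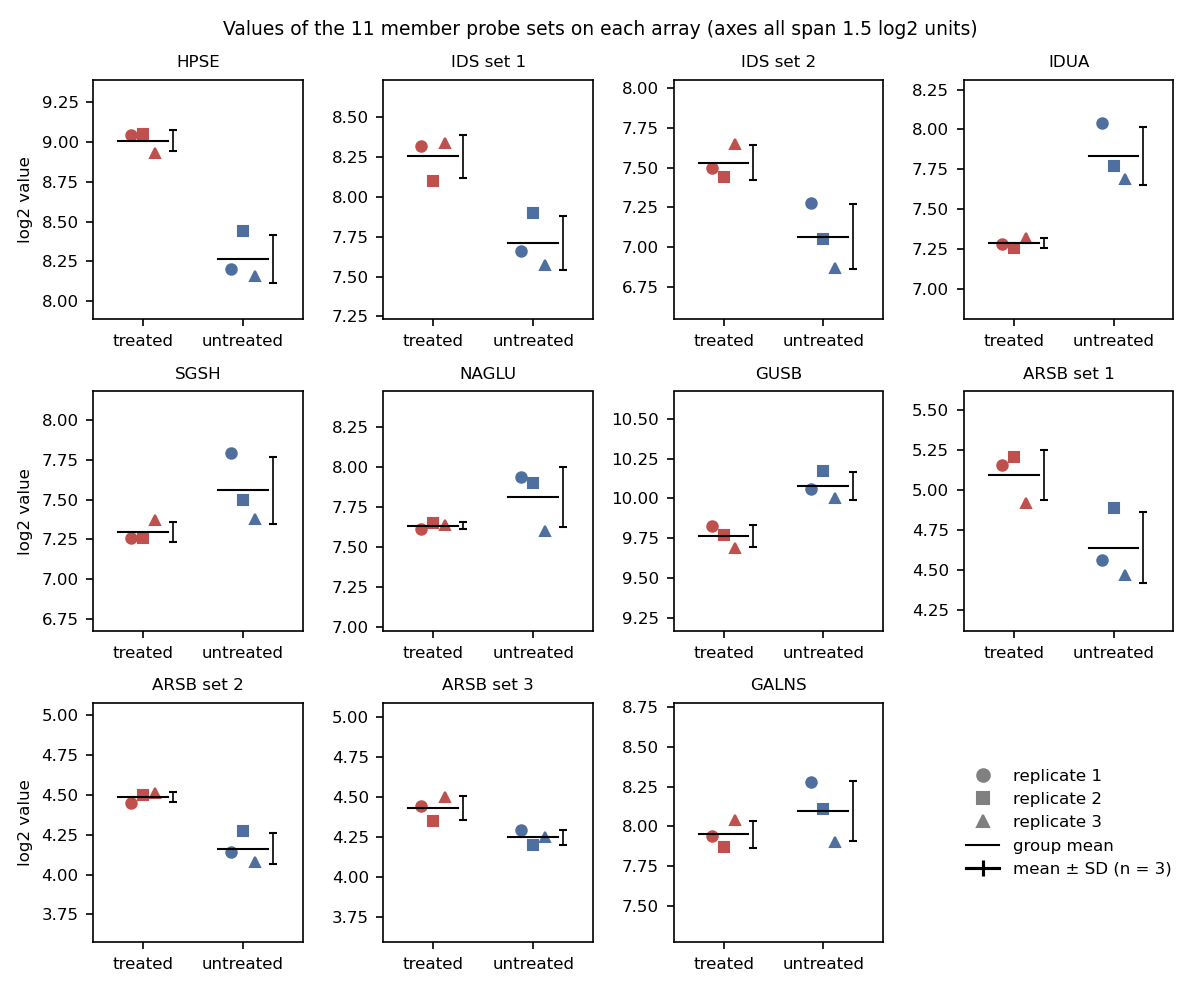
Log2 value (vertical axis) of the 11 probe sets in treated cells (red, left) and untreated cells (blue, right); each symbol is 1 array, the line is the group mean and the bar the SD of 3 arrays, and every panel spans 1.5 log2 units. The groups are apart in 9 panels and overlap in those of NAGLU and GALNS.

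HPSE encodes heparanase, the endoglycosidase that starts the breakdown of heparan sulfate chains. Its log2 values were 9.04, 9.05 and 8.93 in treated cells, against 8.20, 8.44 and 8.16 in untreated cells. Every treated value lay above every untreated one. The log2 change was 0.74 ± 0.09 (SE, 3 arrays per group; 95% interval 0.54 to 0.94; limma adjusted p = 7.43e-05). It was the only member probe set that was both called and changed by 1.5-fold or more, a size and call reached by 13.4% of all probe sets, and it ranked 113 of 1259 by size of change.

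IDS encodes iduronate 2-sulfatase, which removes the 2-O-sulfate of iduronic acid from heparan sulfate and dermatan sulfate, the form of chondroitin sulfate that holds iduronic acid. Its brighter probe set, here IDS set 1, read 8.32, 8.10 and 8.34 in treated cells, against 7.66, 7.90 and 7.57 in untreated cells. IDS set 2, which is named for another transcript, read 7.50, 7.44 and 7.65 in treated cells, against 7.28, 7.05 and 6.87 in untreated cells. The groups did not overlap in either set. The log2 changes were 0.55 ± 0.10 (SE, n = 3 per group, limma adjusted p = 0.00158) and 0.46 ± 0.11 (limma adjusted p = 0.00555), and both counted as rises. Without variance moderation the call of IDS set 2 was lost (adjusted p = 0.083). The endings of both names mark sets that can bind more than 1 transcript, and RefSeq lists 1 pseudogene named after IDS, so signal from it was not separated.

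IDUA encodes alpha-L-iduronidase, which removes the iduronic acid that IDS has freed of its sulfate. Its log2 values were 7.28, 7.26 and 7.32 in treated cells, against 8.04, 7.77 and 7.69 in untreated cells. The treated values lay close together and below all untreated ones, with SDs of 0.03 in treated cells and 0.18 in untreated cells. The log2 change was -0.55 ± 0.09 (SE, 95% interval -0.75 to -0.34, limma adjusted p = 0.000783), the largest fall among the members. The gene overlaps SLC26A1 in the RefSeq annotation, and the name's ending marks a set that can bind more than 1 transcript, so a share of signal from a neighbour was not tested.

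SGSH encodes N-sulfoglucosamine sulfohydrolase, which takes the N-sulfate from glucosamine in heparan sulfate. It read 7.26, 7.26 and 7.37 in treated cells, against 7.79, 7.50 and 7.38 in untreated cells. The groups were separated only by the narrow gap between treated replicate 3 and untreated replicate 3. The log2 change of -0.26 ± 0.10 (SE, 95% interval -0.49 to -0.03) was not called in limma's test (adjusted p = 0.0777). It was called without untreated replicate 3 (log2 change -0.35, adjusted p = 0.0215), after quantile normalization (adjusted p = 0.0473), after median centring (adjusted p = 0.0352) and with array weights (adjusted p = 0.0179), in a range up to 0.281 over the alternatives.

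NAGLU encodes alpha-N-acetylglucosaminidase, which acts after HGSNAT has acetylated the exposed glucosamine. It read 7.61, 7.65 and 7.64 in treated cells, against 7.94, 7.90 and 7.60 in untreated cells. Untreated replicate 3 lay below all treated values, and the other two untreated arrays above them. The log2 change was -0.18 ± 0.09 (SE, 95% interval -0.39 to 0.02, limma adjusted p = 0.164) and was not called. Without untreated replicate 3 it was -0.29 and called (adjusted p = 0.0136), and with array weights the adjusted p was 0.0486, the others ranging up to 0.437.

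GUSB encodes beta-glucuronidase, which removes glucuronic acid from both kinds of chain and is often used as a reference gene in expression assays. It read 9.83, 9.77 and 9.69 in treated cells, against 10.06, 10.17 and 10.00 in untreated cells. All treated values lay below all untreated ones. The log2 change was -0.31 ± 0.08 (SE, 95% interval -0.48 to -0.15, limma adjusted p = 0.0075). RefSeq lists 19 pseudogenes named after GUSB, and signal from them was not separated.

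ARSB and GALNS are the sulfatases of N-acetylgalactosamine in chondroitin sulfate, ARSB for the 4-sulfate and GALNS for the 6-sulfate. ARSB set 1 read 5.16, 5.21 and 4.92 in treated cells, against 4.56, 4.89 and 4.47 in untreated cells. ARSB set 2 read 4.45, 4.50 and 4.51 in treated cells, against 4.14, 4.27 and 4.08 in untreated cells. These sets did not overlap between the groups, although treated replicate 3 and untreated replicate 2 of set 1 nearly met. The log2 changes were 0.45 ± 0.12 (SE, n = 3 per group, limma adjusted p = 0.0101) for set 1 and 0.32 ± 0.07 (limma adjusted p = 0.0054) for set 2. ARSB set 3, named for another transcript, read 4.44, 4.35 and 4.50 in treated cells, against 4.29, 4.20 and 4.25 in untreated cells. Its log2 change of 0.18 ± 0.07 was not called (limma adjusted p = 0.0783), also not in any of its 12 alternatives. The ARSB sets are dim: 32.6%, 24.7% and 24.9% of probe sets had a mean value at or below theirs, and no detection calls were used here. Set 1 lost its call without variance moderation (adjusted p = 0.115) and set 2 after quantile normalization (log2 change 0.20, adjusted p = 0.0581). The ending of the name of ARSB set 2 marks a set that can bind more than 1 transcript, and signal from others was not separated.

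GALNS read 7.94, 7.87 and 8.04 in treated cells, against 8.28, 8.11 and 7.90 in untreated cells. The groups overlapped, since untreated replicate 3 lay among the treated values. The log2 change was -0.15 ± 0.10 (SE, 95% interval -0.37 to 0.07), it was not called (limma adjusted p = 0.302), and none of its 13 alternatives called it.

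**Figure D3:**
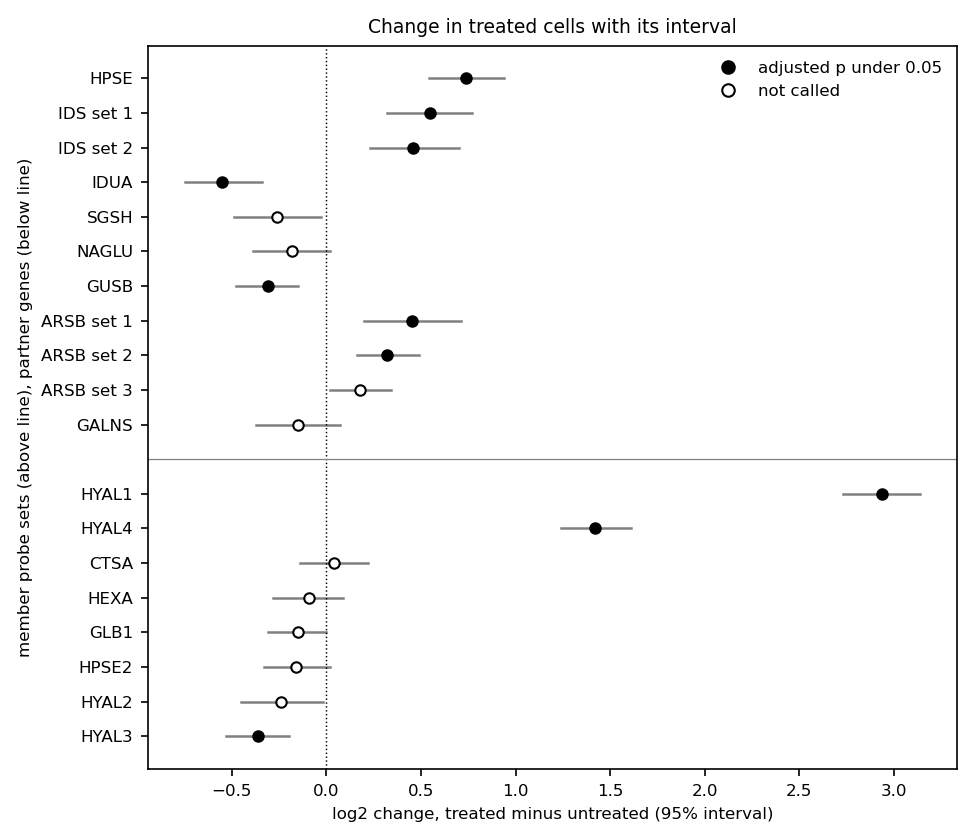
Log2 change, treated minus untreated (horizontal axis), with its 95% interval from limma, for the 11 member probe sets (above the line) and 8 partner genes of the same breakdown pathway (below it); filled points have an adjusted p under 0.05. HPSE, IDS and ARSB lie right of 0 and IDUA and GUSB left of it, while HYAL1 at 2.94 and HYAL4 at 1.42 lie beyond every member.

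Members that act on the same residue were set against each other within each array, for 3 pairs chosen by function. The log2 value of IDS set 1 minus that of IDUA was 1.05, 0.84 and 1.02 on treated arrays, against -0.38, 0.13 and -0.12 on untreated arrays. The difference between groups was 1.09, so the sulfatase and the glycosidase that follow each other on iduronic acid moved apart without overlap. Since IDS set 1 rose and IDUA fell, each without overlap, this separation restates those changes and is no further evidence. For ARSB set 1 minus GALNS the group means were -2.85 in treated cells and -3.46 in untreated cells, a difference of 0.60, also without overlap. For SGSH minus NAGLU they were -0.33 and -0.26 in treated and untreated cells, a difference of -0.08 with overlapping groups. In two-sided exact permutation tests over the arrays the p-values were 0.1, 0.1 and 0.5, and after adjustment over the 3 pairs 0.15, 0.15 and 0.5. With 3 arrays per group 0.1 is the smallest p this test can give, so no pair could pass a threshold of 0.05. The level of 1 probe set cannot be compared with that of another, so these values show the change in the difference and not which enzyme is more abundant.

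The members varied more between untreated arrays than between treated ones. The untreated SD was the larger in 10 of 11 probe sets, with a median SD of 0.069 in treated cells and 0.181 in untreated cells. Among the 796 probe sets with mean values in the range of the members, the untreated SD was the larger in 55.7%, with median SDs of 0.092 in treated cells and 0.104 in untreated cells. Untreated replicate 3 had the lowest of the untreated values in 10 of the 11 member sets, against 38.9% of those 796 probe sets. It was thus nearest to the treated values where the treated mean was lower, as in IDUA, SGSH, NAGLU and GALNS, and farthest from them where it was higher, as in HPSE, IDS and ARSB sets 1 and 2. The highest untreated value was that of replicate 1 in 6 member sets and of replicate 2 in 5. The member sets were read on the same arrays, so these counts are a description, and the part of 1 array in the results was not tested beyond leaving it out. Without untreated replicate 3 the members had 5 rises and 4 falls, and all probe sets together had 225 rises and 215 falls.

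Groups did not overlap in 9 of the 11 member sets, 6 higher and 3 lower in treated cells. Over all probe sets 46.1% did not overlap, 22.7% being higher and 23.4% lower in treated cells. The median absolute log2 change was 0.324 over the 11 member sets and 0.151 over all 1259 probe sets. Taking 1 probe set per gene, the one with the highest mean, 3 of 8 members rose and 2 fell, with a median log2 change of -0.165, while over all 927 named genes 183 rose and 163 fell (37.3% called), with a median of -0.004. With the mean of each gene's probe sets in its place, 3 rose and 2 fell as well.

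**Figure D4:**
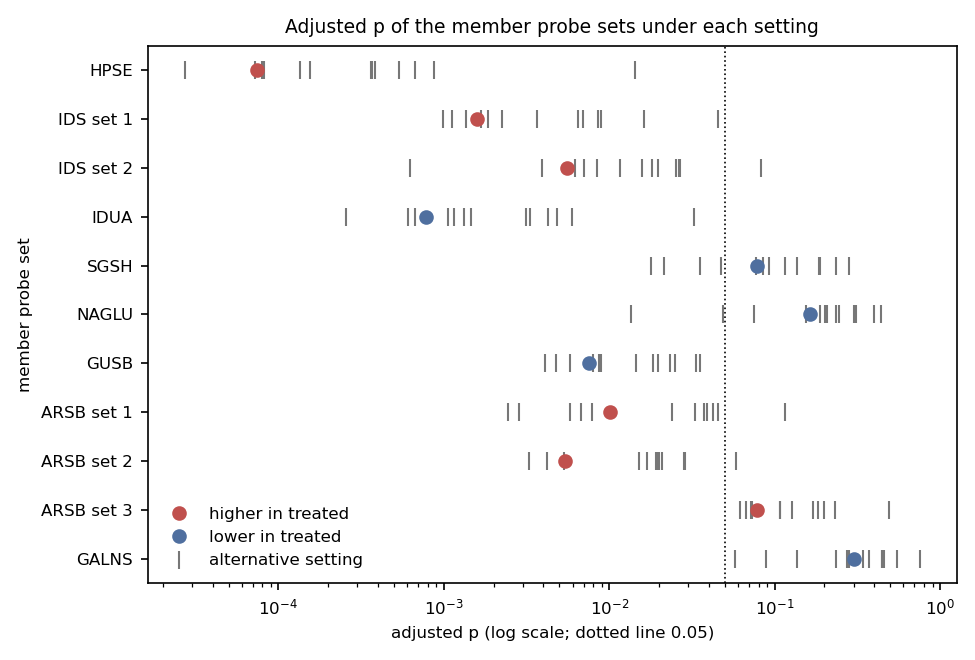
Adjusted p (horizontal axis, log scale, threshold 0.05 dotted) of each member probe set in the reported test (circle, red where treated cells were higher and blue where they were lower) and in each alternative (tick). HPSE, IDS set 1, IDUA and GUSB stay left of the threshold in all 13 alternatives. IDS set 2, ARSB sets 1 and 2, SGSH and NAGLU lie on both sides of it.

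The other enzymes of glycosaminoglycan breakdown had 2 rises and 1 fall among 10 measured genes, a median log2 change of -0.083. Of these genes 30% were called, against 37.3% over all 927 named genes. The rises were hyaluronidase genes: HYAL1 averaged 8.45 in treated cells and 5.51 in untreated cells (log2 change 2.94 ± 0.09 SE, limma adjusted p = 8.26e-09), and HYAL4, whose product is known to cut chondroitin sulfate, averaged 5.96 in treated cells and 4.54 in untreated cells (1.42 ± 0.08, limma adjusted p = 4.11e-07). HYAL3 fell by 0.36 ± 0.07 on the log2 scale (limma adjusted p = 0.00308). HEXA, which encodes a subunit of beta-hexosaminidase, averaged 7.05 in treated cells and 7.15 in untreated cells, and was not called. GLB1, beta-galactosidase, averaged 10.26 in treated cells and 10.42 in untreated cells, and was not called. HPSE2, a heparanase homologue that binds heparan sulfate without cutting it, averaged 4.98 in treated cells and 5.14 in untreated cells, and was not called either. The list had 2 rises and 3 falls after median centring, and 2 of each after quantile normalization and without treated replicate 2.

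Sulfatases outside the member list had 0 rises and 3 falls among 7 measured genes in limma's test, with 0 rises also at an unadjusted p under 0.05 and without variance moderation. The share called was 42.9%, near the 37.3% over all 927 named genes, of which 183 rose and 163 fell. With 7 genes the lack of rises shows no direction for sulfatases as a class. The falls were ARSD (-0.94 ± 0.10 SE, limma adjusted p = 4.69e-05), ARSL (-0.81 ± 0.07, limma adjusted p = 5.48e-06) and STS, steroid sulfatase (-0.66 ± 0.07, limma adjusted p = 4.69e-05). The ARSD value is that of its brighter probe set. A dimmer ARSD set, named for another transcript, averaged 4.68 in treated and in untreated cells and was not called (limma adjusted p = 0.993). ARSD, ARSL and STS lie on the X chromosome, as IDS does, which rose. The extracellular sulfatases SULF1 and SULF2, which take 6-O-sulfate from heparan sulfate at the cell surface, averaged 3.06 and 6.84 in treated cells and 3.11 and 6.78 in untreated cells, and neither was called. Other lysosomal glycosidases and their transport had 4 rises and 4 falls among 16 genes (50% called). The counts were 3 and 7 after median centring and 4 and 6 after quantile normalization. The rises with the smallest p were NEU1, lysosomal sialidase (0.97 ± 0.07), and GLA, alpha-galactosidase (0.49 ± 0.07). Among the falls was MANBA, beta-mannosidase (-0.65 ± 0.09).

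On the side of synthesis, 2 of 21 heparan sulfate genes rose and 2 fell, a share of 19% called, against 37.3% over all named genes. Their median log2 change was -0.02. HS6ST2 (1.96 ± 0.11) and HS3ST3A1 (0.88 ± 0.11), which add 6-O- and 3-O-sulfates, rose, and HS3ST1 (-1.19 ± 0.08) and HS2ST1, which adds the 2-O-sulfate that IDS removes (-0.22 ± 0.08, limma adjusted p = 0.0468), fell. A filter on dim probe sets left HS2ST1 as the only one of these 4 in the test, so that it counted 1 fall and 0 rises. Falls also numbered 1 in the fit blocked on replicate number, with an intensity trend, without variance moderation, without treated replicate 2 or 3 and without untreated replicate 1 or 2. Chondroitin and dermatan sulfate synthesis had 4 rises and 1 fall among 15 genes (33.3% called), with a median of 0.113. CHST15 (3.27 ± 0.09) and CHST11, which adds the 4-sulfate that ARSB removes (1.86 ± 0.10), rose with CHSY1 (0.66 ± 0.08) and CSGALNACT2 (0.50 ± 0.09), and UST, a uronyl 2-sulfotransferase, fell (-0.91 ± 0.08). Among 24 genes of proteoglycan cores 7 rose and 2 fell (37.5% called). The rises with the smallest p were SPOCK2 (2.66 ± 0.10) and VCAN (3.25 ± 0.18), and the falls were GPC4 (-0.54 ± 0.09) and TGFBR3 (-0.40 ± 0.10). Falls numbered 4 after either rescaling, 3 without untreated replicate 1, with array weights and with an intensity trend, and 1 without untreated replicate 2, without variance moderation and in the fit blocked on replicate number. Several of these rises started from low values. HS6ST2, HS3ST3A1, CHST11, VCAN and CHST15 averaged 2.68, 3.91, 3.49, 3.5 and 4.11 in untreated cells, in a table that starts at 2.13. Whether those untreated values lay above background was not tested. Chain content and enzyme activity were not measured.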

How the data were processed

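The authors deposited 1 table of log2 values, made with RMA, per the submitters' processing notes. The sources used here state no version, setting, platform or build. The log2 scale was taken from the range, 2.13 to 13.67. Unused columns of values numbered 0. At most 5 of 1259 values were identical between any pair of arrays. RefSeq transcripts in the names gave 1 symbol for 1043 probe sets, and 216 stayed unnamed (26 unmatched, 190 without a RefSeq identifier). Some companion sets, among them those of NEU1, CHST11 and VCAN, also have endings that mark sets able to bind more than 1 transcript.

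A linear model with 1 treatment term was fitted to all 1259 probe sets in R 4.3.3 with limma 3.58.1 (lmFit, eBayes), with two-sided tests adjusted by Benjamini-Hochberg. Probe sets with an adjusted p under 0.05 were called. The background step in RMA can shrink changes of dim probe sets, and its effect on these values was not tested. Members and lists were chosen with earlier results of these data known. Named were all member probe sets and, per companion list, every called gene up to 5, otherwise the 2 rises and 2 falls with the smallest p; other genes given with values were chosen after these were seen, and some genes within the counts are not reported here by name. On simulated data, 100% of 100 probe sets changed by 0.585 and of 100 changed by 1 were called (treated against untreated, 1259 probe sets, 7 false calls). The simulated noise was independent between probe sets, and changes under 0.585, as in every member but HPSE, were not simulated. The simulation thus does not give the power for those members. Same-numbered arrays showed no shared deviation (correlations -0.274, 0.037 and -0.111 for replicates 1, 2 and 3). With 3 arrays per group this cannot show whether they were prepared in pairs, and the reported fit used no pairing.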

Additional observations from a re-analysis of the deposited data

How the results depend on the processing

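The count of called member probe sets, 7, lay between 5 and 9 over the alternatives, within 1.5 times of the reported count, and that over all probe sets, reported as 438, between 330 (at an adjusted p under 0.01) and 508. Leaving out 1 array gave 7 to 9 member calls and 376 to 440 calls over all probe sets. No member probe set changed direction in any alternative. HPSE, IDS set 1, IDUA and GUSB kept their calls in all 13, with highest adjusted p-values of 0.0144, 0.0457, 0.0327 and 0.0354. With the replicate number as a block 7 member probe sets and 394 of the whole table were called, and no member's call changed. Calls lost or gained for IDS set 2, ARSB, SGSH and NAGLU are given with their values; the cause was not tested. Quantile normalization moved the median change of all probe sets by -0.042 and median centring by -0.067. With the dimmest probe sets left out, 839 stayed, with means of at least 4.9, and the ARSB sets were not tested. Array weights called 8 genes of chondroitin sulfate synthesis against 5 in the reported fit. Without detection calls, low values could not be set against background.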
